A study of Rattus norvegicus with 97 samples.

Results

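The sP rats, the Sardinian line bred to prefer alcohol, were compared with the sNP rats, its non-preferring counterpart. The comparison took the 18 arrays whose labels name this line pair, 9 of sP and 9 of sNP, out of 97 arrays from 5 such pairs of lines. Per the labels, each array held RNA from the nucleus accumbens shell of 1 animal, and they give no treatment, age, sex or alcohol exposure for either line. The other 4 pairs (P with NP, HAD1 with LAD1, HAD2 with LAD2, AA with ANA, the preferring line first) were bred for the same contrast and enter only where the sP and sNP difference is set against theirs. Values are log2 RMA signals of 31042 probe sets, the number left without 57 Affymetrix controls, and a difference is sP minus sNP on that scale with its standard error. A probe set was called where limma gave an adjusted p under 0.05. All tests measure the spread between single animals of each line, and the number of arrays limits their precision.

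The nucleus accumbens shell is the medial part of the ventral striatum, where dopamine from the midbrain meets glutamate input from cortex, amygdala and hippocampus. Nearly all of its neurons are GABAergic medium spiny neurons, among glial and vascular cells. Those of the direct pathway carry the D1 dopamine receptor, dynorphin and substance P, those of the indirect pathway the D2 receptor, an adenosine receptor and enkephalin, and both kinds carry the phosphoprotein DARPP-32. Lines bred apart for many generations also come to differ at genes that have nothing to do with the trait under selection.

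Some arrays lay apart from their line. Each array was placed on a scale with the sNP median at 0 and the sP median at 1, the label score, using the 50 probe sets that best part the remaining arrays of these lines. sP 4 scored 0.399 and sNP 4 scored 0.460, while the other 8 sP arrays scored from 0.967 to 1.05 and the other 8 sNP arrays from -0.02 to 0.01. Arrays sP 4 and sNP 4 were also the closest of all 4656 pairs of arrays in the series: their log2 values differed with an SD of 0.145 over the probe sets, against a median of 0.313 over the other 80 pairs of an sP with an sNP array. The next closest pair was sNP 6 and sNP 7, with an SD of 0.150, ahead of 0.170 for the pair after them. A pair of arrays labelled as other lines fell in with this pair: AA 19 scored 1.03 and correlated best with sP (mean r 0.995, against 0.979 with its own line), and ANA 20 scored -0.02 and correlated best with sNP (0.996, against 0.986). Whether sP 4 and sNP 4, or sNP 6 and sNP 7, share RNA was not tested, so the 18 arrays may hold fewer than 18 independent animals. No array was moved or relabelled, and results are given with 18 arrays and with the 16 that leave out sP 4 and sNP 4. Array medians lay between 7.82 and 7.89. The difference between the 3' and 5' Gapdh control probe sets, a sign of RNA integrity, was 0.32 to 0.80 in sNP and 0.31 to 0.48 in sP, with a mean difference of -0.06 (exact permutation test over 48620 splits, two-sided p = 0.223).

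**Figure D1:**
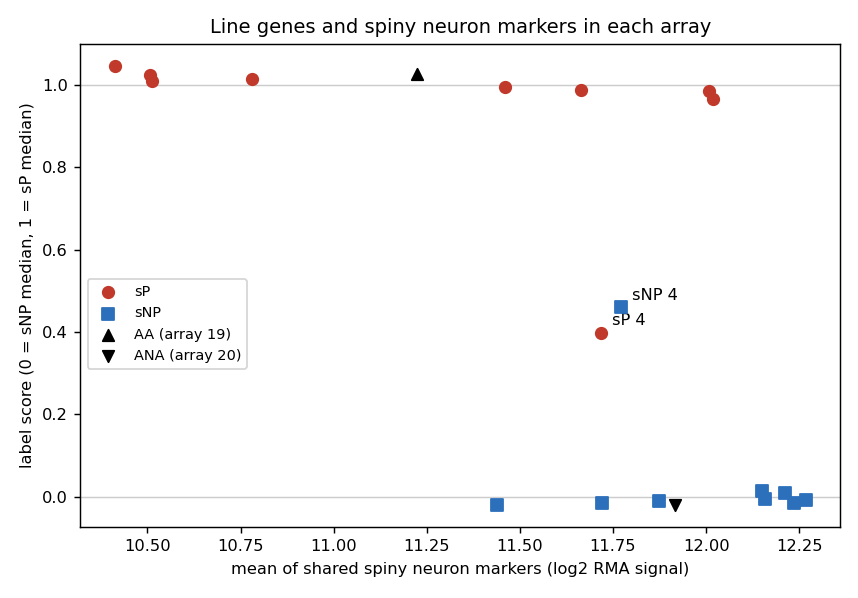
Label score of each array (vertical axis, no unit, 0 at the sNP median and 1 at the sP median) against the mean log2 RMA signal of the shared spiny neuron markers (horizontal axis); each point is 1 array, red for sP, blue for sNP and black for AA 19 and ANA 20. sP 4 (0.399) and sNP 4 (0.460) sit between the lines, and 4 sP arrays have marker means of 10.78 or less, below every sNP array.

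In sP, 2197 probe sets (7.08%) were higher and 1809 (5.83%) were lower than in sNP, together 4006 (12.9%) of 31042. Without sP 4 and sNP 4 the count was 4657 (15%), with 8.28% of probe sets higher and 6.72% lower, and 3871 probe sets were called both times with no change of sign. Most calls were close to the threshold: 2499 of the 4006 (62.4%) had an adjusted p of 0.03 or more, 516 had one under 0.01, and the median size of a called difference was 0.35. The count depended on single arrays. Leaving out 1 array gave 1272 calls without sNP 1, 1031 without sNP 3, 1319 without sNP 5, 2379 without sNP 6 and 1221 without sNP 9. It gave 1032 without sP 2, 1098 without sP 5, 1142 without sP 8 and 1139 without sP 9. The count rose to 5634 without sP 1, 5821 without sP 3, 5120 without sP 6, 5210 without sNP 4 and 5095 without sNP 8. Without any other array it lay from 2850 to 4048. Centring each array on its median turned the split to 1807 higher and 2005 lower. A smaller set parted the lines completely. In 152 probe sets (0.490%) the lowest animal of 1 line lay above the highest of the other, and in the 16 arrays this held for 419 (1.3%), of which 229 were higher and 190 lower in sP. Of those 419, 415 were called in all 18 arrays, and between 386 and 419 with 1 array left out; since the 419 were picked for no overlap in 16 of the same arrays, these counts are a description.

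The largest difference of a named gene was in Fam111a, which encodes a serine protease that acts at stalled DNA replication forks and restricts some viruses. Its log2 signal ran from 8.56 to 9.61 in sP with a median of 9.21, and from 4.52 to 8.45 in sNP with a median of 4.73. The lines did not overlap, and the highest sNP value was that of sNP 4. The difference was 4.01 ± 0.396 (16.2-fold, adjusted p = 4.31e-06), and 4.50 without arrays 4.

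Ccl6, a rodent chemokine, had a lowest, median and highest signal of 8.14, 8.53 and 9.10 in sP and of 5.41, 5.79 and 8.27 in sNP, where the high value is again sNP 4. It was higher by 2.54 ± 0.279 (5.8-fold, adjusted p = 1.37e-05). RT1-T24-3, a class I histocompatibility gene of the rat, ran 8.04, 8.83 and 9.10 in sP against 6.61, 6.90 and 8.05 in sNP, a difference of 1.75 ± 0.161 (adjusted p = 2.85e-06). Fcgr2b, the inhibitory Fc receptor for IgG, ran 7.23, 7.77 and 8.19 against 5.82, 6.52 and 7.11 with no overlap, and differed by 1.2 ± 0.167 (adjusted p = 0.000124). The overlap of the lines in Ccl6 came from sNP 4, and that in RT1-T24-3 from sNP 4 reaching sP 4.

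Genes with other roles were also high in sP. Creg2, a secreted glycoprotein of brain, ran 7.44, 8.05 and 8.32 in sP and 5.12, 5.82 and 7.54 in sNP, a difference of 1.99 ± 0.225 (adjusted p = 1.81e-05). Vav2 was called higher on all 4 of its probe sets, and the one with the largest difference ran 7.14, 7.66 and 8.18 against 5.71, 6.23 and 6.96 in sNP, a difference of 1.42 ± 0.167 (adjusted p = 2.85e-05). Kif5c, a neuronal kinesin heavy chain, was called higher on 2 of its 3 probe sets, by 1.08 ± 0.141 on one of them (adjusted p = 9.16e-05), where it ran 7.25, 7.89 and 8.31 against 6.43, 6.71 and 7.22. The other called probe set, the brightest of the 3, differed by 0.26 (adjusted p = 0.0356). On the probe sets with these ranges, Vav2 and Kif5c did not overlap between the lines in any of the 18 arrays. Plac9 (1.78), Ooep (1.47), the actin-binding coronin Coro6 (1.3) and the endoplasmic reticulum peptidase Ermp1 (1.16) were also higher, each without overlap on that probe set once arrays 4 were left out. The other probe set of Plac9 differed by 0.02 (adjusted p = 0.846) and the other, brighter one of Ermp1 by 0.13 (adjusted p = 0.19), neither called. Sema3c, a secreted semaphorin, and Kcns3, a potassium channel subunit, were higher by 1.3 each but with overlap (adjusted p = 0.0314 and 0.0334). With the marker index given with the spiny neuron genes as a covariate, Sema3c (0.21), Kcns3 (0.26) and Coro6 (0.61) lost their call (adjusted p = 0.998, 0.998 and 0.0851).

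Among the probe sets with 1 gene symbol, Mpeg1, a pore-forming protein of macrophages and microglia, was lowest in sP relative to sNP. Its signal ran 7.48, 8.23 and 10.45 in sP and 10.58, 11.07 and 11.25 in sNP, and the difference was -2.67 ± 0.265 (6.35-fold lower, adjusted p = 4.31e-06). These values are those of its brighter probe set. The other, with means of 5.26 in sP and 5.48 in sNP, differed by -0.22 and was not called (adjusted p = 0.0923). The sP value of 10.45 was that of sP 4, and the other 8 sP animals lay far under every sNP animal. Of the 12 microglial markers, limma called 0, and 0 had an unadjusted p under 0.05. Their median difference was 0.04, and Aif1, Tmem119 and Cx3cr1 differed by 0.01, -0.08 and -0.09. Their mean level ran from 9.52 to 9.99 in sP and from 9.60 to 9.99 in sNP.

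Eml1, which binds microtubules, ran 7.01, 7.54 and 9.54 in sP and 9.53, 10.16 and 10.42 in sNP, a difference of -2.42 ± 0.24 (adjusted p = 4.31e-06) with 2 of its 3 probe sets called lower and none higher. The brightest of the 3 differed by -1.07. Tnfaip6, a secreted protein that binds hyaluronan, ran 6.68, 6.77 and 8.43 against 8.55, 9.39 and 9.80, a difference of -2.35 ± 0.215 (adjusted p = 2.85e-06). Adgrg6, an adhesion receptor known for its part in the myelination of peripheral nerve, ran 5.77, 5.93 and 6.93 against 7.08, 7.61 and 7.92, a difference of -1.46 ± 0.14 (adjusted p = 3.71e-06). In each of these the sP animal nearest to sNP was sP 4. Eeig2 (-1.66), Vof16 (-1.59), the ESCRT subunit Chmp1b (-1.51), Jhy (-1.39), the histone deubiquitinase Mysm1 (-1.11), troponin C of fast muscle Tnnc2 (-1.13) and Phip (-1.10) were also lower on the probe set given, and none of these overlapped there between the lines without arrays 4. Other probe sets of some of these genes were not called: that of Mysm1 differed by 0.07, that of Vof16 by -0.02, and those of Phip by -0.11 and -0.0042. The uncalled probe sets of Mysm1 and Phip were the brighter ones. The other probe set of Eeig2 was also the brighter one and differed by -0.42 (adjusted p = 0.0468). Tbc1d10c (-1.49), the striatal diacylglycerol kinase Dgkb (-1.33), the Ras activator Rasgrp1 (-1.32) and Syndig1l (-1.06) were lower with overlap, and each of these, like Tnnc2 (-0.83, adjusted p = 0.114), lost its call with the marker index as covariate.

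Among the 533 measured genes of the fixed lists, 6 members parted the lines in the 16 arrays. That share was no larger than the 1.4% of all genes (199 of 14217), each taken by its brightest probe set. Vwf, the von Willebrand factor of endothelial cells, ran 8.59, 8.88 and 9.25 in sP and 9.40, 9.84 and 9.92 in sNP, a difference of -0.84 ± 0.0954 (1.79-fold lower, adjusted p = 2.04e-05). Grm2, the presynaptic glutamate receptor mGlu2, ran 6.13, 6.47 and 6.74 against 6.79, 7.09 and 7.16, a difference of -0.59 ± 0.0797 (1.51-fold lower, adjusted p = 0.000132). Both kept the lines apart in all 18 arrays. The other members did so only without arrays 4: Eya1 (-0.72 in the 18), the GABA-A subunit Gabra5 (-0.54), the serotonin receptor channel Htr3a (-0.40) and the class I gene RT1-T24-4 (0.49).

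**Figure D2:**
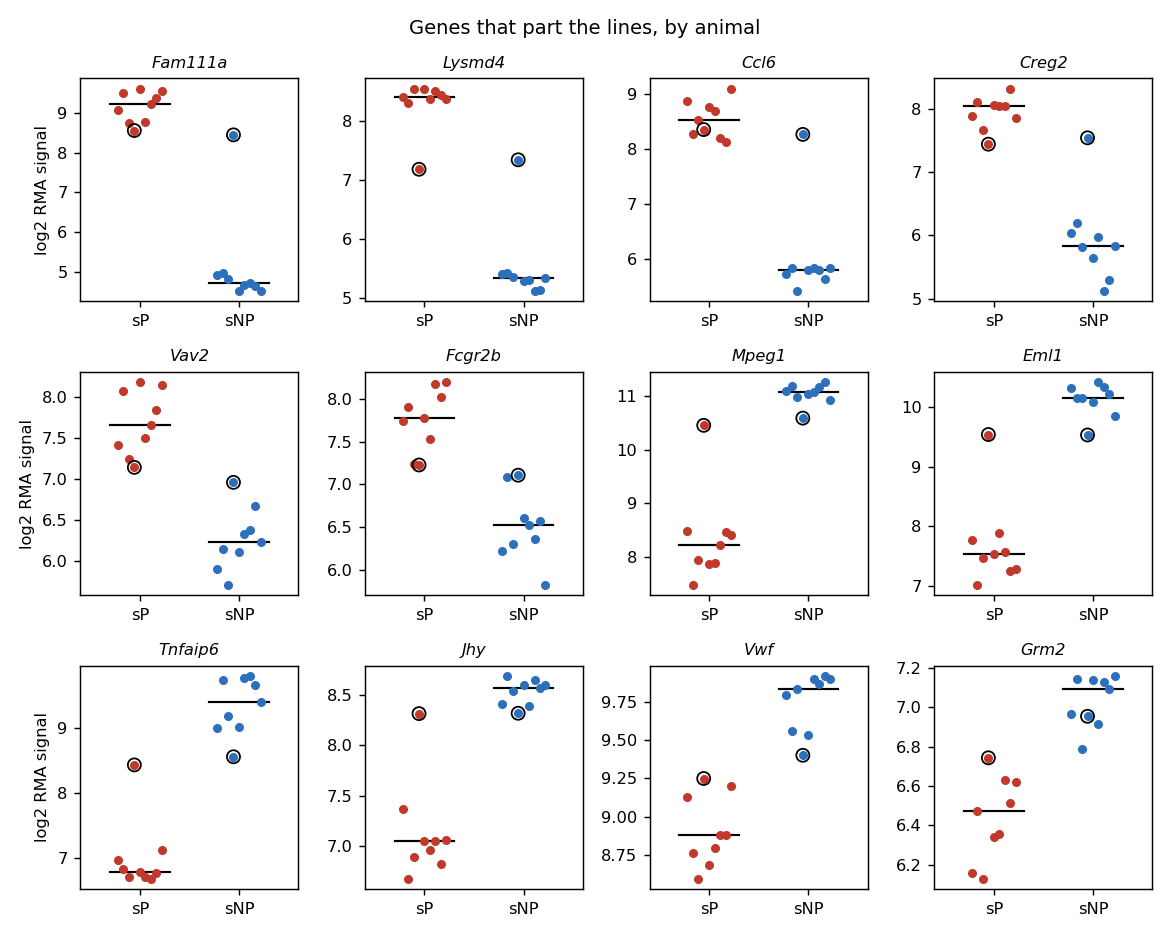
Log2 RMA signal (vertical axis, scaled per gene) of 12 genes in each of the 9 sP (red) and 9 sNP (blue) animals; bars are medians and black circles mark array 4 of each line. Fam111a, Vav2, Fcgr2b, Mpeg1, Tnfaip6, Jhy, Vwf and Grm2 show no overlap, and circled points lie toward the other line.

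On the 419 probe sets that parted the other 16 arrays, sP 4 lay between the lines on 165, on the sP side on 158 and on the sNP side on 96, and its median position was 0.508 on a scale with the sNP mean at 0 and the sP mean at 1. For sNP 4 these numbers were 153, 141 and 125, with a median position of 0.475. AA 19 lay on the sP side on 377 of the 419 and ANA 20 on the sNP side on 380.

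Probe sets of 1 gene did not always move together. Of the 121 genes with several probe sets and at least 1 that parted the 16 arrays, 81 (66.9%) had all probe sets of 1 sign, against 2751 of all 4525 such genes (60.8%). Lysmd4, a LysM domain protein, was higher on 1 probe set (8.30 on average in sP against 5.52 in sNP, difference 2.78 ± 0.247) and lower on the other 3, by -0.82, -0.77 and -0.96, all of them called. Sgcb, which encodes beta-sarcoglycan, was lower on 1 probe set (-1.08) and higher on the others (0.33 and 0.62), and Chmp1b was lower on 3 of 4 and higher by 0.85 on the other. For such genes no direction of the transcript as a whole can be given. What part sequence differences under the probes have in this was not tested.

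The genes that part the lines also lay near each other. Of 236 such genes, 88 (37.3%) had another within 5 measured genes on either side in the RefSeq gene order, against 1819 of 13962 other measured genes (13%). They formed 34 runs of 2 or more and 11 runs of 3 or more. The longest run had 7 genes: the aldo-keto reductases Akr1b1 (0.21), Akr1b10 (-0.85 on one probe set, 0.37 on the other) and Akr1b7 (0.46), followed by Tmem140 (0.53), Cyren (0.51), Wdr91 (-0.35) and Stmp1 (0.53). Jhy and Vof16 lay in a run with Scn3b, Gramd1b and Ubash3b, Grm2 in a run with Abhd14a (0.68 and 0.52), Abhd14b (0.41) and Rrp9 (-0.50), and Lysmd4 in a run with Selenos (0.25) and Synm (0.64). Members of a run moved in both directions.

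Another pattern was a lower level of medium spiny neuron genes in sP, and it had another shape. Of 32 measured genes, taken by their brightest probe set, 30 had a negative difference, 22 were called lower and 0 higher, with a median of -0.78, against 6.35% called lower, 8.81% called higher and a median of 0.01 over all 14217 genes. Without arrays 4 the count was again 22, where 7.37% of all genes were called lower and 10.4% higher. Both pathways were included: 13 of 17 shared markers (median -0.78), 4 of 9 of the direct pathway (-0.71) and 5 of 6 of the indirect pathway (-0.89) were called lower. Only Eya1 parted the lines, and only in the 16 arrays. In tissue samples, fewer spiny neurons, less RNA per neuron and a larger share of neighbouring tissue in the piece taken cannot be told apart.

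The shared marker Ppp1r1b, which encodes DARPP-32, ran 10.43, 12.38 and 12.91 in sP and 12.16, 13.06 and 13.27 in sNP, a difference of -1.07 ± 0.336 (2.1-fold lower, adjusted p = 0.0432). Bcl11b, a transcription factor of spiny neurons, ran 11.24, 12.15 and 12.45 against 12.13, 12.53 and 12.78, a difference of -0.60 ± 0.17 (adjusted p = 0.0338). In both, the sP values spread widely and their upper part overlapped with sNP.

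Of the direct pathway, Drd1, the D1 receptor, ran 10.94, 12.45 and 13.16 in sP and 12.56, 13.30 and 13.43 in sNP, a difference of -0.94 ± 0.286 (adjusted p = 0.0402). Pdyn, the dynorphin precursor, ran 11.48, 13.02 and 13.28 against 12.80, 13.35 and 13.53, a difference of -0.71 ± 0.231 (adjusted p = 0.0476). Tac1, the precursor of substance P, had a difference of -0.94 ± 0.351 that did not pass the test (adjusted p = 0.0763). Eya1, a transcriptional coactivator, ran 7.22, 7.74 and 8.18 against 7.97, 8.41 and 8.87, a difference of -0.72 ± 0.143 (adjusted p = 0.00562), and overlapped only through sNP 4.

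Of the indirect pathway, Adora2a, the adenosine receptor of these neurons, ran 9.44, 11.52 and 12.24 in sP and 11.57, 12.30 and 12.65 in sNP, a difference of -1.30 ± 0.379 (2.46-fold lower, adjusted p = 0.0363). Drd2, the D2 receptor, ran 8.99, 10.50 and 11.18 against 10.49, 11.14 and 11.56, a difference of -1.0 ± 0.288 (adjusted p = 0.0351). Penk, the enkephalin precursor, ran 12.46, 13.85 and 14.27 against 13.97, 14.29 and 14.49, a difference of -0.79 ± 0.23 (adjusted p = 0.0358). Here too the lowest sP animals lay well under all sNP animals and the highest did not.

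**Figure D3:**
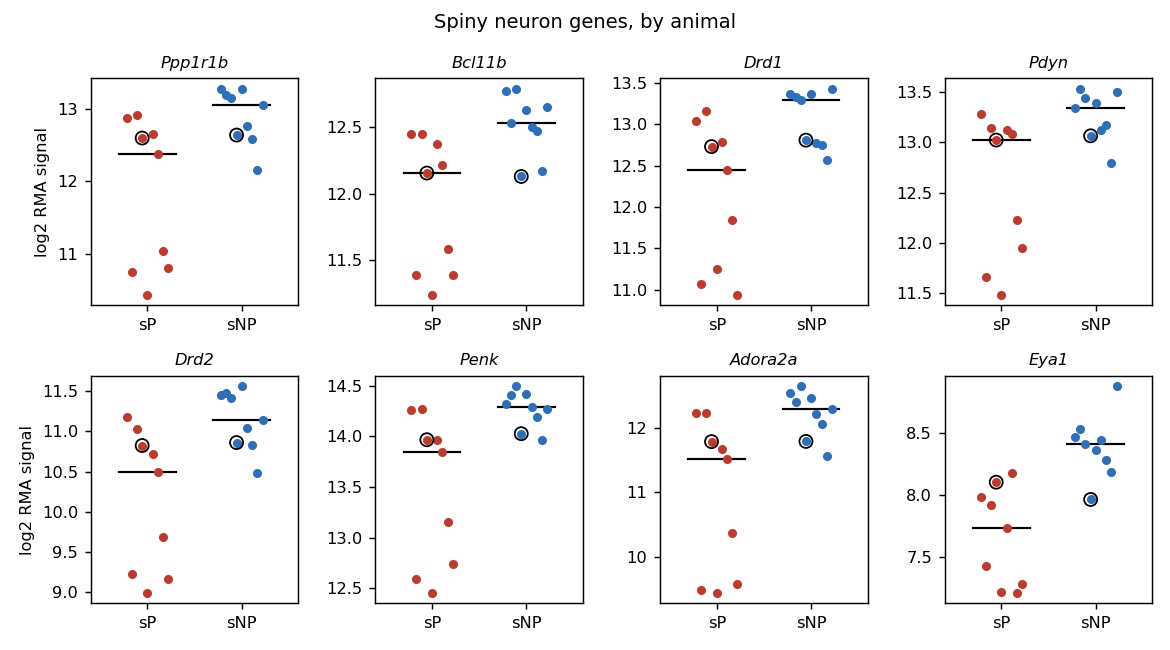
Log2 RMA signal (vertical axis, scaled per gene) of 8 spiny neuron genes in each of the 9 sP (red) and 9 sNP (blue) animals; bars are medians and black circles mark array 4. The sP values spread over a wide range whose upper part overlaps with sNP, as for Adora2a, with 9.44 to 12.24 in sP and 11.57 to 12.65 in sNP.

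The spread came from a subset of animals. The mean of the shared markers was 10.41 to 10.78 in sP 2, 5, 8 and 9 and 11.46 to 12.02 in sP 1, 3, 4, 6 and 7, while the sNP animals lay between 11.44 and 12.27. Over all probe sets, sP 1, 3, 4 and 6 correlated more with the sNP arrays than with the other sP arrays. Leaving out any 1 of sP 2, 5, 8 and 9, or of sNP 1, 3, 5 and 9, left 1 spiny neuron gene called lower, although the median difference stayed between -0.66 and -0.88 for every array left out. Leaving out sNP 6 left 7 and sNP 2 left 13, as did counting sNP 6 and sNP 7 as 1 averaged sample. Most markers of the neighbouring ventral pallidum, septum and basal forebrain moved the other way: 8 of 11 differences were positive and 3 negative. Of the 11, 4 were called higher and 0 lower. Their median difference was 0.24, with a mean level of 9.64 to 10.21 in sP and 9.22 to 9.98 in sNP. Zic1, a septal transcription factor, had a difference of 0.25 ± 0.0685 at a low level (5.47 and 5.27 as medians). Cortical pyramidal markers were near the bottom of the scale, at mean levels of 6.06 to 6.45 and 6.02 to 6.34, and limma called 0 of 8, with 2 at an unadjusted p under 0.05.

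A marker index per array, the shared spiny neuron mean minus the mean of those neighbouring markers, ran from 0.30 to 2.38 in sP and from 1.49 to 3.02 in sNP. With this index as a covariate, limma called 315 probe sets (1.01%), of which 169 (0.544%) were higher in sP and 146 (0.470%) lower. The 4006 include 287 of them. Of all genes, 0.837% were called, 0.429% higher and 0.408% lower. None of the 32 spiny neuron genes was called by limma (1 had an unadjusted p under 0.05), and the shared ones are themselves part of the index. Of the 419 probe sets that parted the 16 arrays, 230 (54.9%) kept a call: Fam111a (3.47), Mpeg1 (-2.47), Tnfaip6 (-2.35), Vwf (-0.82) and Grm2 (-0.69) among them. The 419 were picked for no overlap in 16 of the same arrays, while the index itself overlapped between the lines. A probe set that follows the index was thus unlikely to be among them, and this count too is a description. What part tissue composition has in the calls, these 230 included, was not tested beyond this fit. With the Gapdh difference as covariate, 863 were called.

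**Figure D4:**
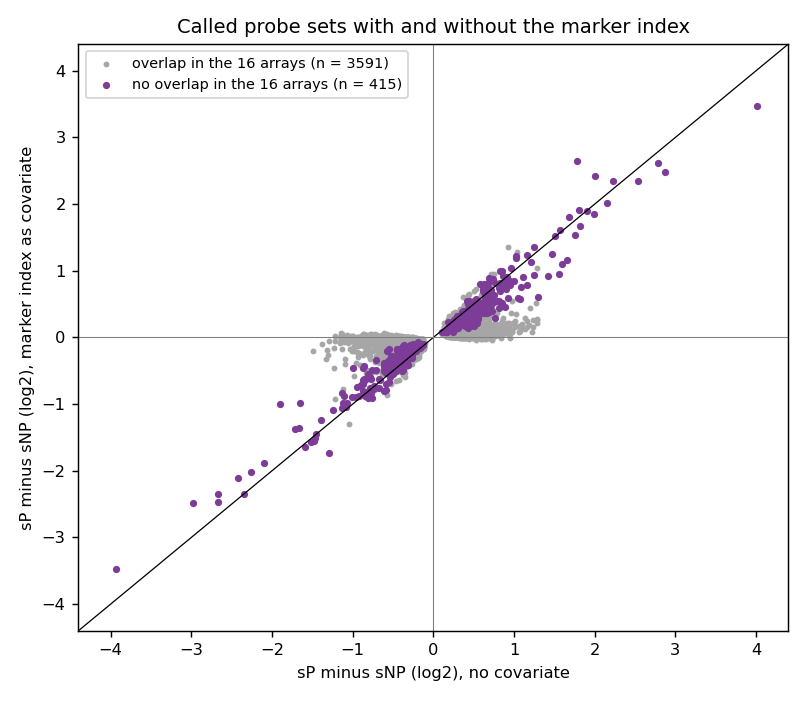
sP minus sNP difference (log2) of the 4006 called probe sets without a covariate (horizontal axis) and with the marker index as covariate (vertical axis); the diagonal marks equal values. Purple points, the 415 called probe sets whose lines do not overlap in 16 arrays, lie along the diagonal, and many of the other 3591 (grey) lie near 0 on the vertical axis. The purple points were picked for no overlap in the same arrays, so their place is a description.

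Promoters are shown for 3 spiny neuron genes whose level was lower in sP, since cAMP acts on spiny neuron genes through CREB, which binds the letters TGACGTCA or the shorter TGACG. These genes were chosen for their letters after the values were seen. Among the 250 bases before the start of 25 spiny neuron genes with a RefSeq promoter sequence (GRCr8), 1 held TGACGTCA on either strand (4%) and 5 held TGACG or its reverse complement CGTCA (20%), against 466 (1.70%) and 5205 (19%) of 27457 promoters of the same length; the short form also counts where it lies inside the long one. The 5 were Gpr6, Pde10a, Slc35d3, Strn and Tac1, and the windows of Strn and Tac1 are not shown. The shares for the short form are close, that for the long form rests on 1 gene, and a match is no proof of a site. The windows below run 5′ to 3′ on the gene's strand, and capitals mark these letters.
Gpr6: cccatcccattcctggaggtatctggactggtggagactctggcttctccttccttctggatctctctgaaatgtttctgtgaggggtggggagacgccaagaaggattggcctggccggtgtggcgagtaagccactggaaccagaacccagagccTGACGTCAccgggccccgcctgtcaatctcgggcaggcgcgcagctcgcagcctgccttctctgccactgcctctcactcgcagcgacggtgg
Pde10a: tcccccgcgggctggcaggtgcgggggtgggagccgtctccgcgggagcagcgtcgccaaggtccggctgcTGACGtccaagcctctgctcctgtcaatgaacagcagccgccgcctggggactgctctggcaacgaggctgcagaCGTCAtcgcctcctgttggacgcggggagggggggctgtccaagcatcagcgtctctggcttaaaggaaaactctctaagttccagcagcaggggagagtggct
Slc35d3: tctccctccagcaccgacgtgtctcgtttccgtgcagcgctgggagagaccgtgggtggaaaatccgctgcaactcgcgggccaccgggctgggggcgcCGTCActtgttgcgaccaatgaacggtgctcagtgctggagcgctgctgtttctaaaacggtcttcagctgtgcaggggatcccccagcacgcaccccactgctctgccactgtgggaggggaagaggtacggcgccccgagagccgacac
The window of Gpr6, an orphan receptor of the indirect pathway, lies at chr20:46075252-46075501 on the minus strand and holds the full TGACGTCA. That of Pde10a, the striatal phosphodiesterase, lies at chr1:54765669-54765918 on the minus strand and holds 2 short forms. That of Slc35d3, a transporter-like protein that brings the D1 receptor to the surface, lies at chr1:16392781-16393030 on the minus strand and holds 1. Gpr6 ran 7.32, 10.09 and 10.62 in sP and 9.80, 10.58 and 10.88 in sNP, a difference of -1.14 ± 0.371 (adjusted p = 0.0486). Pde10a ran 10.24, 11.58 and 12.67 against 11.80, 12.74 and 13.07 on its brighter probe set, a difference of -1.03 ± 0.324 (adjusted p = 0.0433). Slc35d3 ran 7.63, 9.02 and 10.45 against 9.27, 10.43 and 10.85, a difference of -1.10 ± 0.357 (adjusted p = 0.0476). All of these had calls near the threshold and overlapped between the lines.

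Of the 533 measured genes of the 35 fixed lists, 141 were called, 67 higher and 74 lower. Of all genes, 15.2% were called, 8.81% higher and 6.35% lower. With the marker index as covariate 4 were called: Vwf (-0.82), Grm2 (-0.69), Gsta4 (-0.59) and RT1-T24-4 (0.29). In the lists that follow, called members other than these lost their call in that fit, though not always their size: Abcb1a stood at -0.42 (adjusted p = 0.0611), Dcn at 0.58 (adjusted p = 0.115) and Cspg4 at 0.27 (adjusted p = 0.312).

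Dopamine and cAMP signalling, which shares genes with the spiny lists, had 14 of 26 lower and 0 higher. Glutamate receptors had 8 of 21 lower and 2 higher, where 6.35% of all genes were called lower and 8.81% higher. Besides Grm2, the NMDA subunit Grin2b ran 8.4, 9.25 and 9.75 in sP and 9.51, 9.86 and 10.22 in sNP, a difference of -0.70 ± 0.167 (adjusted p = 0.0176), and Grm3, the astrocytic and neuronal mGlu3, differed by -0.29 ± 0.0728 (adjusted p = 0.0225). The AMPA subunit Gria1 (-0.40, adjusted p = 0.0621) and Grm5, which encodes mGlu5 (-0.43, adjusted p = 0.073), did not pass. Of the postsynaptic density and its kinases, 7 of 16 were lower and 1 higher: the kinase Camk2a by -0.72, the scaffold Homer1 by -0.64, the activity-induced Arc by -0.72, and the scaffold Shank1 by 0.35, which was higher on 1 of its 3 probe sets.

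The GABA list moved both ways, with 4 of 17 higher and 4 lower, against 8.81% and 6.35% of all genes. Gabra2, the alpha-2 subunit of the GABA-A receptor, a gene much studied in alcohol dependence, ran 10.96, 11.47 and 11.81 in sP and 11.77, 12.15 and 12.38 in sNP, a difference of -0.67 ± 0.12 (adjusted p = 0.00209). Gabra5 ran 10.38, 10.94 and 11.15 against 11.02, 11.40 and 11.59, a difference of -0.54 ± 0.12 (adjusted p = 0.0112), and Gabra4 differed by -1.14 ± 0.314 (adjusted p = 0.0315). For Gabra2 the overlap was small, 11.77 to 11.81. The GABA-making enzyme Gad1 differed by 0.13 and was not called (adjusted p = 0.064).

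Among peptides and their receptors, the opioid list had Penk and Pdyn lower and its receptors uncalled, with 0.04 for the mu receptor Oprm1 and -0.33 for the kappa receptor Oprk1 (adjusted p = 0.0801). The other neuropeptides had 3 of 27 higher and 4 lower, where 8.81% of all genes were called higher and 6.35% lower. Mc4r, the melanocortin receptor of energy balance, ran 7.19, 8.38 and 8.88 against 8.49, 9.12 and 9.45, a difference of -0.92 ± 0.21 (adjusted p = 0.0142), and Hcrtr2, an orexin receptor, ran 7.65, 8.16 and 8.87 against 6.17, 7.28 and 8.20, a difference of 0.99 ± 0.251 (adjusted p = 0.024). Cartpt, the precursor of CART, differed by -0.94 and Npy by -0.34 (adjusted p = 0.0393 and 0.045), and Crh by 0.35 without a call (adjusted p = 0.486). These receptors thus moved in opposite directions between the lines.

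Serotonin receptors had 3 of 12 lower and 1 higher, the latter near the share of all genes (8.81% higher, 6.35% lower). Htr1f differed by -0.79 ± 0.166 (adjusted p = 0.0087), Htr3a by -0.40 and Htr7 by 0.76, while Htr2c differed by -0.23 and was not called (adjusted p = 0.0875). The cholinergic list had 1 of 13 lower, near the share of all genes, the muscarinic receptor Chrm1 (-0.45 ± 0.116, adjusted p = 0.0247). The endocannabinoid list had 1 of 5 lower, with the cannabinoid receptor Cnr1 at 0.45 and uncalled (adjusted p = 0.0556). Potassium channels had 6 of 30 higher and 8 lower, from Kcnma1, the BK channel, at -0.75 and Kcnn3 at -0.32 to Kcnd3 at 0.48. Of CREB and immediate early genes, 4 of 20 were lower and 1 higher, with Egr1 at -0.69, the CREB coactivator Crtc1 at -0.45 and Fos uncalled at 0.13. Neurotrophins, their receptors and synuclein had 5 of 13 higher and 0 lower, with Bdnf at 0.50 ± 0.151 (adjusted p = 0.039), the receptor Ret at 0.79 and Sncb, beta-synuclein, at 0.61. Presynaptic release genes had 5 of 22 higher and 0 lower, with Syp at 0.31 and Cplx1 at 0.39, and Snap25 uncalled at 0.04.

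**Figure D5:**
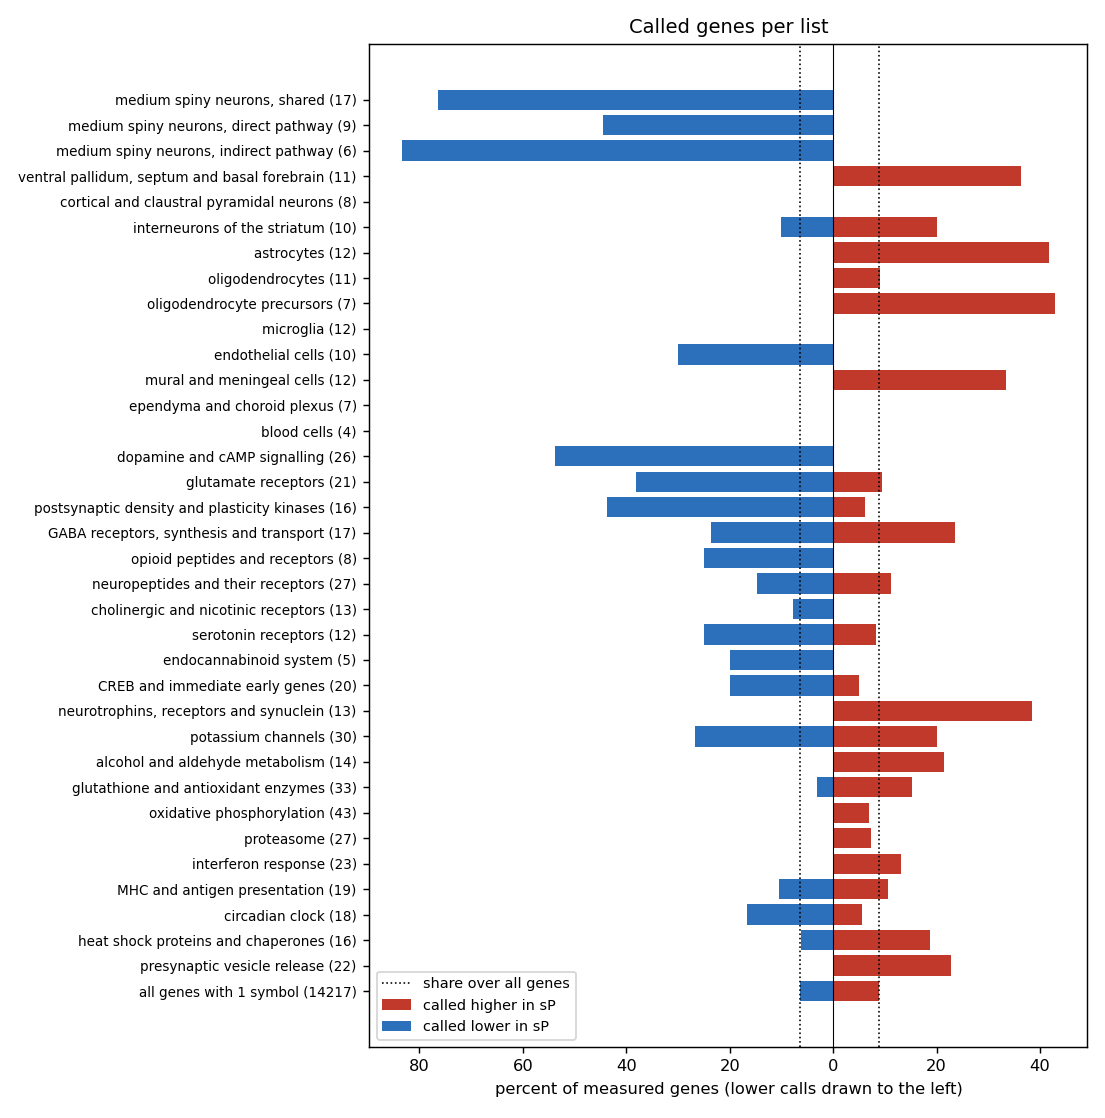
Percent of measured genes called higher (red, right) and lower (blue, left) in sP for each list, with the number measured in brackets; dotted lines mark the share over all genes (8.81% higher, 6.35% lower). The 3 spiny neuron lists and dopamine signalling reach furthest to the left, and precursors, astrocytes and neurotrophins furthest to the right.

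Over all genes, 8.81% were called higher and 6.35% lower. Of 12 astrocyte genes, 5 were higher and 0 lower: Agt, angiotensinogen, ran 11.70, 12.50 and 12.99 in sP and 10.24, 11.46 and 12.44 in sNP (1.14 ± 0.281, adjusted p = 0.0214), the connexin Gjb6 differed by 0.84 and Gfap by 0.52, while the water channel Aqp4 stood at 0.01. Oligodendrocyte precursors had 3 of 7 higher, with Pdgfra at 0.22 and Cspg4 at 0.31, and oligodendrocytes 1 of 11, Mobp at 0.19, a share near that of all genes. Endothelial markers had 3 of 10 lower and 0 higher, with Vwf and the drug transporter Abcb1a (-0.43 ± 0.0807, adjusted p = 0.00319), and with Cldn5 uncalled at -0.05. Mural and meningeal markers had 4 of 12 higher, among them the matrix protein Dcn (0.55), and Tagln uncalled at 0.49. Striatal interneurons had 2 of 10 higher and 1 lower, with Pvalb, also in the pallidal list, at 1.07 and the cholinergic Chat uncalled at 0.53. Ependyma (Ttr 0.11) and blood (Hbb -0.35) had no call by limma in 7 and 4 genes, with 0 and 1 at an unadjusted p under 0.05.

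Of alcohol and aldehyde metabolism, 3 of 14 genes were higher and 0 lower, against 8.81% and 6.35% of all genes. Cat, the catalase that oxidises ethanol in brain, ran 11.41, 11.47 and 11.82 in sP and 10.89, 11.12 and 11.45 in sNP, a difference of 0.42 ± 0.0846 (1.3-fold, adjusted p = 0.00638). Aldh5a1, which degrades succinic semialdehyde, differed by 0.40 ± 0.113 (adjusted p = 0.0339), and Aldh2, which clears acetaldehyde, by 0.05 without a call. The Cat values met only between 11.41 and 11.45. Antioxidant enzymes had 5 of 33 higher, with Gstp1 at 0.33 and Gclm at 0.39, and 1 lower, Gsta4, which conjugates lipid aldehydes: it ran 10.29, 10.76 and 10.99 against 10.84, 11.04 and 11.27 (-0.36 ± 0.0937, adjusted p = 0.0277).

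Oxidative phosphorylation had 3 of 43 higher, with Atp5f1a at 0.16, and Cox4i1 uncalled at 0.11; the proteasome had 2 of 27 higher. Both shares were near or under that of all genes (8.81% called higher, with 6.35% lower). The interferon list had 3 of 23 higher, with Ifitm3 at 0.57 ± 0.122 (adjusted p = 0.00951) and Irf9 at 0.28, and Mx1 uncalled at 0.26. Antigen presentation had 2 of 19 higher and 2 lower, and the class II gene RT1-Da stood at -0.27 without a call. Circadian clock genes had 1 of 18 higher, Bhlhe40 at 0.29, and 3 lower, with Bmal1 at -0.41, while Per2 stood at -0.06. Heat shock genes had 3 of 16 higher and 1 lower, with Bag3 at 0.60 and Cryab at 0.40.

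The difference between sP and sNP was then tested against the mean difference of the other 4 pairs in 1 limma fit of all 97 arrays. It departed on 2237 probe sets (7.21%), more positive on 1258 (4.05%) and more negative on 979 (3.15%). Without 8 arrays taken to depart from their line, the count was 4589. These were sP 4, sNP 4, AA 19, ANA 20 and 1 array each of P, NP, HAD1 and LAD1, for which no distances are given here. For Fam111a the difference of differences was 3.65 ± 0.334 (adjusted p = 5.26e-14): the other pairs differed by 0.06, -0.11 and 0.01, and AA and ANA by 1.48, with the sign seen in sP and sNP. AA 19 is 1 of the 10 AA arrays, and its part in the 1.48 was not tested. Eml1 (-2.47) and Creg2 (1.87) had differences no larger than 0.33 in size in each other pair. On the probe set that was higher in sP, Lysmd4 had a difference of 3.43 between HAD2 and LAD2, and Mpeg1 had one of -1.92 between AA and ANA, both with the sign seen in sP and sNP. Sgcb had a difference of 1.83 in HAD1 and LAD1 and of -3.14 in HAD2 and LAD2, and its difference of differences was not called (-0.71, adjusted p = 0.344).

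Vwf (-0.77 ± 0.11, adjusted p = 2.7e-07), Gabra2 (-0.83, adjusted p = 0.000472) and Cat (0.45, adjusted p = 0.00998) departed from the other pairs, and Grm2 did not pass (-0.52, adjusted p = 0.0528). Gsta4 did not pass either (-0.03, adjusted p = 0.946), with differences of -0.86, -0.55 and -0.66 in the HAD1, HAD2 and AA pairs and of 0.75 in the P pair. Of all genes, 8.33% departed, 5.05% more positive and 3.28% more negative. Of the 32 spiny neuron genes, 5 departed, Drd2 (-1.03, adjusted p = 0.0262) and Penk (-0.78, adjusted p = 0.0073) among them. Without the 8 arrays 21 departed, in a fit that called 4589 of all 31042 probe sets, against 2237 with them. Animals with low spiny neuron levels were not limited to sP: the shared marker mean went down to 9.70 in P and 10.89 in NP, and its lowest value in the other 6 lines was 11.22, in AA 19, the array that correlated best with sP.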

How the data were processed

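RNA was taken with Trizol and RNeasy columns, and 25 ng of total RNA was labelled in 2 cycles, per the labels' protocols. The deposited values are log2 signals that the authors summarised with RMA, per the submitters' processing notes. The sources used here name neither an RMA version nor a genome build. They were used as deposited. Arrays were grouped by line from the labels. Members, gene lists, tests and the promoter genes were chosen with earlier results of these data known.

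limma 3.58.1 (R 4.3.3) fitted the 18 arrays with 1 mean per line and moderated two-sided tests, and p-values were adjusted by Benjamini and Hochberg over 31042 probe sets. The fit was tested on simulated data. Of the probe sets, 20826 carried 1 gene symbol, 436 several and 9780 none, in the platform annotation. Lists (35, with 533 of 586 genes measured) used the brightest probe set of a gene and are described by counts and medians.

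The rule for named genes took the 12 largest called differences each way with 18 arrays, the 12 each way without overlap in 16, the 8 largest differences of differences each way, and per list the defining members and up to 4 called members with the smallest adjusted p, 1 probe set per gene and no provisional symbols. The text gives a selection of these, chosen with the values known, plus Gpr6 and Pde10a and the genes of neighbour runs. Animal numbers 1 to 9 occur in both lines, but the labels do not call them pairs. Alternatives were other scalings, filters, covariates, a block on animal number and leaving out arrays.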

Additional observations from a re-analysis of the deposited data

Results flagged for a closer look

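Single animals far from the others of their line were sought in 246 sets of 9 values, where a gap to the nearest animal of over 0.493 of the range counts, which chance gives in about 1 in 20 sets. That rate does not hold for genes chosen because they part the lines without arrays 4, since that choice favours arrays 4 standing apart. There were 31. The label score gave 0.877 for sP 4 and 0.929 for sNP 4. In sP, array sP 4 stood apart, toward sNP, for Lysmd4 (0.826), RT1-T24-3 (0.6), Ooep (0.584), Mpeg1 (0.662), Eml1 (0.657), Tnfaip6 (0.746), Vof16 (0.511), Chmp1b (0.593), Jhy (0.576), Mysm1 (0.517) and Sgcb (0.533). In sNP, array sNP 4 stood apart for Fam111a (0.884), Lysmd4 (0.862), Ccl6 (0.852), Creg2 (0.553), RT1-T24-3 (0.548), Coro6 (0.511), Mpeg1 (0.509), Mysm1 (0.581) and Cox4i1 (0.528), at the end of the range nearer to sP. Other animals stood apart for Vof16 in sNP 2 (0.521), Aqp4 in sNP 2 (0.548), Ttr in sP 7 (0.721), Arc in sNP 5 (0.516), Crh in sP 2 (0.519), Mx1 in sP 5 (0.645), RT1-Da in sNP 6 (0.539) and Snap25 in sNP 2 (0.574), and sNP 1 had the highest difference between the Gapdh probe sets (0.585).

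The difference between sP and sNP departed from the mean of the other 4 pairs, by the test of the difference of differences, on 2237 probe sets and on 54 of 118 genes given with values above, which leave out genes named only in neighbour runs. It was more positive for Fam111a (3.65), RT1-T24-3 (2.23), Lysmd4 (1.98), Ccl6 (1.97), Creg2 (1.87), Plac9 (1.73), Fcgr2b (1.52), Kif5c (1.51), Ooep (1.43), Vav2 (1.4), Coro6 (1.18), Ermp1 (1.14), Pvalb (1.10), Gjb6 (0.75), Cryab (0.60), Kcnd3 (0.55), Ifitm3 (0.54), Cat (0.45), Cplx1 (0.44), Aldh5a1 (0.43), Gstp1 (0.36), Cspg4 (0.36) and Atp5f1a (0.19). It was more negative for Tnfaip6 (-2.47), Eml1 (-2.47), Mpeg1 (-2.13), Vof16 (-1.84), Chmp1b (-1.77), Syndig1l (-1.54), Adgrg6 (-1.54), Jhy (-1.53), Eeig2 (-1.51), Tbc1d10c (-1.39), Mysm1 (-1.37), Dgkb (-1.36), Adora2a (-1.26), Rasgrp1 (-1.24), Tnnc2 (-1.23), Gabra4 (-1.17), Drd2 (-1.03), Phip (-1.0), Kcnma1 (-0.83), Gabra2 (-0.83), Mc4r (-0.80), Penk (-0.78), Vwf (-0.77), Htr1f (-0.76), Grin2b (-0.72), Egr1 (-0.70), Eya1 (-0.68), Bcl11b (-0.63), Gabra5 (-0.61), Abcb1a (-0.52) and Bmal1 (-0.47).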

How the results depend on the processing

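Against 4006 calls, the marker index as covariate gave 315, the Gapdh difference 863 and leaving out 1 array 1031 to 5821. Chosen after the data were seen, an adjusted p under 0.01 gave 516, the marker index without arrays 4 gave 450, and averaging sNP 6 and sNP 7 gave 2719. The other scalings, filters and fits with planned settings gave 3223 to 5035. The alternatives for the spiny neuron, list and overlap counts were also chosen after the data were seen. Of 22 spiny neuron genes called lower, the marker index left 0 with and without arrays 4, the Gapdh difference 1, averaging sNP 6 and sNP 7 left 13, and leaving out 1 array left 1 to 29. The 141 called list genes became 4 with the marker index. Probe sets whose lines do not overlap went from 152 to 419 without arrays 4, and departures from the other pairs from 2237 to 4589 without 8 arrays. The difference turned its sign with the marker index for Ppp1r1b (0.0298), Pdyn (0.00656), Gpr6 (0.0150), Pde10a (0.0245), Camk2a (0.0158), Homer1 (0.0357), Egr1 (0.000939) and Crtc1 (0.0109), none of them called there; the cause was not tested. Of the 118 genes given with values, which leave out genes named only in neighbour runs, these 8 and 59 others lost their call with the marker index. The replicate block on animal number took the call from 5 and quantile normalization from 1. With the block 4 gained a call (Gria1, Grm5, Chat and Cnr1), and without arrays 4 it was 2 (Tagln and Cnr1). Another 11 that were uncalled both times turned sign with the marker index. The 35 list medians moved by less than the spread between animals in all 105 recomputations, which were without arrays 4, with quantile normalization and over all probe sets of a gene. This is a loose measure, since that spread is as large as many of the medians. The neurotrophin median went from 0.50 to 0.26 over all probe sets, with a spread of 0.29. With the marker index the medians of the spiny lists went to 0.0089 (shared), 0.0066 (direct) and -0.05 (indirect). The replicate block gave 5035 calls (5834 without arrays 4). Same-numbered animals deviated together with r of 0.45, 0.56 and 0.54 for numbers 1, 3 and 8, and from -0.22 to 0.15 for the others. The sP animal correlated best with its own number only for 3 and 8. The numbers were not taken as pairs because the labels do not call them so, and whether same-numbered animals were handled together was not tested.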
